A study of Mus musculus with 24 samples.

Results

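Formative mouse embryonic stem cells that carry catalytic-dead MLL3 and MLL4 (MLL3CD_MLL4CD) were compared with formative wild-type cells across all genes of the deposited table. The comparison took the 6 samples with these labels, 3 per group, of 24 in the series. Both groups are of the R1 embryonic stem cell line per the labels, were grown in LIF and 2 inhibitors, and were collected 63 h after that medium was withdrawn. The other samples are naive cells of the same lines, kept in LIF and inhibitors, and a MLL3KO_MLL4fl line (called floxed here) and a MLL3KO_MLL4KO line (called knockout here) in both states, 4 lines and 2 states in all. The MLL3KO_MLL4fl line lacks MLL3 by its name, so the knockout comparison is made in cells without MLL3. Each genotype is its own line, the labels do not say how many clones stand behind it, and the mutation cannot be told apart from other differences between lines. Per the series' design text the replicates were cultured and prepared independently.

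The genes Kmt2c and Kmt2d encode MLL3 and MLL4, large histone H3 lysine 4 methyltransferases that act mainly at enhancers, where they place the monomethyl mark and, as proteins, hold a complex with a demethylase of H3 lysine 27 and other partners. A catalytic-dead protein can keep its partners while it no longer methylates, and this separates the enzyme's activity from the protein's presence. Formative cells resemble the early postimplantation epiblast: naive factors such as Esrrb are lowered, Fgf5, Otx2 and Dnmt3b are raised, and the cells can then be led towards the primitive streak or the neural plate by Wnt, Nodal, BMP and FGF signals.

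The state was checked first on its markers. Wild-type cells lost Esrrb from 388 CPM in the naive to 24.7 CPM in the formative state and gained Fgf5 from 0.83 to 56.5, Otx2 from 12.2 to 163 and Dnmt3b from 131 to 1720 CPM, as back-transformed deposited means (CPM, counts scaled to a fixed library total). Pou5f1 was listed at only 7.16 CPM in formative wild-type cells. The formative libraries held 7527501 to 13883231 counts in wild type and 6919314 to 13973647 in catalytic-dead cells, and are called a to c from the deepest to the shallowest because the columns carry no replicate numbers. Catalytic-dead library c also entered the deposited mean of the formative knockout line. Of 535 genes that differed by more than 2 log2 between the knockout and the other catalytic-dead libraries, it lay nearer the catalytic-dead libraries in 488 (91.2%), and it was kept as catalytic-dead and taken out of the knockout group. Across 11186 genes, which are not independent replicates, its correlation was 0.911 to 0.938 with the other catalytic-dead libraries and 0.827 to 0.839 with the knockout libraries.

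Counts per library could be read back from the means for 11805 of 16617 genes (71.0%), which were tested. The other 4812 genes, mostly abundant ones, have deposited means only and are given without a test. Levels below are CPM per library, and fold changes are catalytic-dead minus wild type in log2 of CPM with a prior count of 2, a scale that understates the change of low genes. Rose and fell are used for genes with a Benjamini-Hochberg adjusted p under 0.05 in limma over all tested genes.

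In catalytic-dead formative cells 566 genes rose and 407 fell, which is 4.79% and 3.45% of the tested genes and 8.24% together. Among them 369 rises and 266 falls were at least 2-fold, and the 3 libraries of one group lay wholly above or below those of the other in 956 of the 973. Over all tested genes, libraries did not overlap in the upward direction for 15.3% and in the downward direction for 11.7%. The balance of directions moved with the scaling. With size factors in place of totals, 473 genes rose and 530 fell, so that 47.2% rather than 58.2% of the called genes were higher, and 470 of the rises and 406 of the falls were shared. Without wild-type library a, 330 genes rose and 268 fell. Without catalytic-dead library c, 419 rose and 293 fell, of which 385 and 271 were among those called with all libraries. By their deposited means, differences of 2-fold or more were seen upward in 96 (2.0%) and downward in 72 (1.5%) of the genes without a test.

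**Figure D1:**
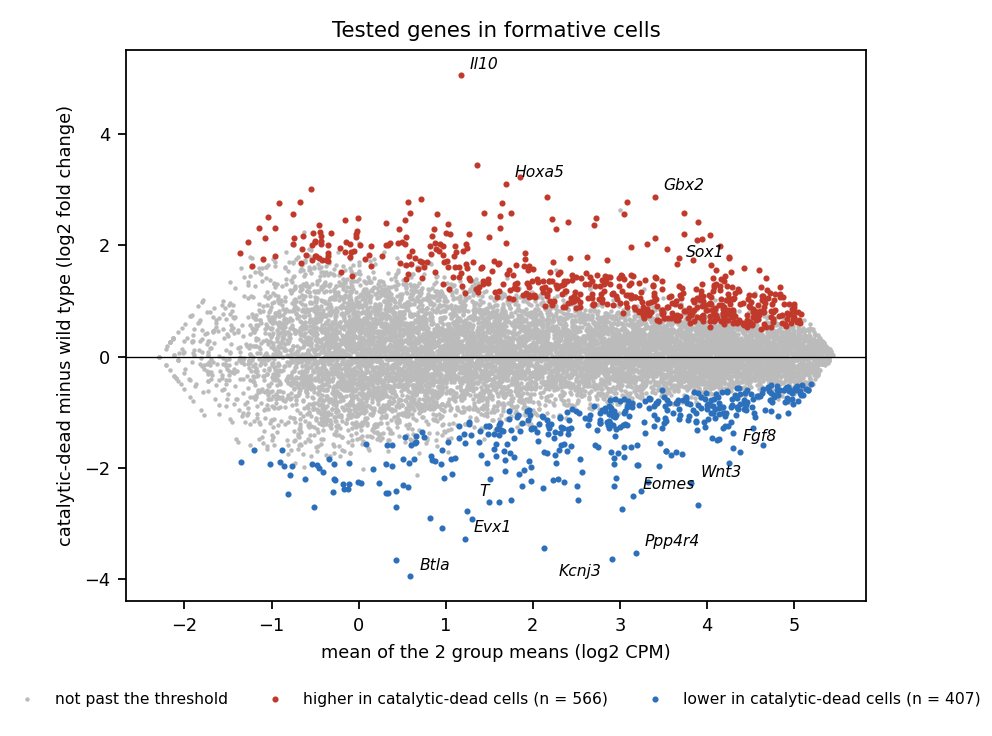
Mean level (x axis, mean of both group means, log2 CPM) against the difference between catalytic-dead and wild-type formative cells (y axis, log2 fold change), 1 point per tested gene. Red points mark the 566 genes that rose and blue points the 407 that fell; Il10 stands highest at 5.06 and Btla lowest at -3.94.

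Transcripts of the targeted genes were present in both groups. Kmt2d, which encodes MLL4 (chr15:98831669-98871204, minus strand, GRCm38), stood at 41.7, 29.8 and 35.9 CPM in wild-type libraries a, b and c and at 22.3, 19.5 and 18.8 CPM in catalytic-dead libraries. The groups did not overlap, and Kmt2d fell by 0.81 on the log2 scale (SE 0.18, adjusted p = 0.00343). In naive cells its difference was -0.07 (adjusted p = 0.871), and the test of the difference between states gave an adjusted p of 0.132. Kmt2c, which encodes MLL3 (chr5:25271798-25498783, minus strand), could not be tested and was at 37.1 CPM in wild-type and 35.4 CPM in catalytic-dead cells. Tags of a 3' assay do not read a change of coding sequence, so these levels do not check the catalytic mutation. Of 17 measured methyltransferases and partners of the family, 3 were tested and Kmt2d was the member that passed, beside 8.24% of all tested genes.

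Of 13 tested genes of the primitive streak and endoderm list, 4 fell in catalytic-dead cells, beside 3.45% of all tested genes; the streak is the site where mesoderm and endoderm form. T, the founding T-box factor of mesoderm (chr17:8434423-8442496, plus strand), was at 7.27, 6.18 and 8.9 CPM in the wild-type libraries and at 1.5, 0.473 and 1.45 in the catalytic-dead libraries. Every catalytic-dead library lay below every wild-type library, and T fell by 2.61 on the log2 scale (SE 0.43, adjusted p = 0.000225). Eomes, the T-box factor of definitive endoderm and cardiac mesoderm (chr9:118478212-118486132, plus strand), was at 25.2, 15.2 and 23.9 CPM in wild-type and 5.44, 2.46 and 3.32 CPM in catalytic-dead libraries. Its groups were also separate, and it fell by 2.49 (SE 0.31, adjusted p = 8.23e-06). Evx1, a homeobox gene of the posterior streak, went from 7.35, 5.79 and 8.1 CPM to 0.644, 0.568 and 0.434 CPM, a fall of 3.28 (SE 0.51, adjusted p = 0.000121). Fst, the secreted activin inhibitor follistatin, was at 10.4 to 19.3 CPM in wild-type and 3.03 to 5.96 CPM in catalytic-dead libraries and fell by 1.8 (SE 0.41, adjusted p = 0.00499). None of the list rose and 9 members did not pass, and the list's median was -0.8 against 0.059 over all tested genes. Mixl1, a streak homeobox gene, was 1.4 log2 lower with an adjusted p of 0.094. Gsc, an organizer factor, and Cxcr4, a chemokine receptor of endoderm, differed by 0.03 and 0.06 (adjusted p = 0.979 and 0.964). The endoderm factors Gata4 and Gata6 differed by 0.17 and 0.26 (adjusted p = 0.886 and 0.867), and Foxa2 was at 1.36 and 1 CPM. Formative floxed cells, not tested against wild type, also had lower deposited means of T, Eomes and Evx1. They held 2.37, 4.68 and 0.393 CPM, beside 7.58, 21.1 and 7.22 CPM in wild type, so low levels were not particular to catalytic-dead cells. In bulk RNA, fewer cells that express such a gene and less RNA per cell cannot be told apart.

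In the Wnt list 5 of 21 tested genes fell and 16 did not pass, beside 3.45% falls over all tested genes. The Wnt ligands are secreted signals that stabilise beta-catenin and so turn on genes bound by TCF and LEF factors. Wnt3, the ligand needed for streak formation, was at 40.5, 20.5 and 35.3 CPM in wild-type libraries and at 6.73, 4.73 and 7.52 CPM in catalytic-dead libraries. The groups were apart, and it fell by 2.28 on the log2 scale (SE 0.26, adjusted p = 2.76e-06). Wnt5b, a ligand mostly studied outside the beta-catenin branch, ranged from 4.52 to 8.93 CPM in wild-type and 0.723 to 2.08 CPM in catalytic-dead libraries, a fall of 2.05 (SE 0.44, adjusted p = 0.00312). Wnt8a, another streak ligand, could not be tested; its deposited mean was 10.2 CPM in wild-type and 0.723 CPM in catalytic-dead cells. Among targets, Axin2, a feedback inhibitor and common readout of the pathway, was at 12.6, 10.0 and 15.5 CPM in wild-type and 2.72, 2.93 and 1.59 CPM in catalytic-dead libraries. It fell by 2.32 (SE 0.39, adjusted p = 0.000293), with no overlap. Sp5, a zinc finger factor induced by Wnt signals, went from 7.56, 6.57 and 7.97 CPM to 1.57, 1.8 and 1.59 CPM, a fall of 2.03 (SE 0.31, adjusted p = 0.000121). The receptor Fzd10 fell by 1.06 (SE 0.25, adjusted p = 0.00761). By deposited means and without a test, the 5 fallen genes of this list were also below wild type in formative floxed cells. Floxed means were 10.4 (Wnt3), 3.37 (Wnt5b), 4.19 (Axin2), 1.5 (Sp5) and 12.4 CPM (Fzd10). Wild-type means were 31.1, 6.54, 12.7, 7.55 and 26.7 CPM. No member of the Wnt list rose, and its median was -0.26; with size factors 7 fell, Tcf7 and Sfrp2 being added, and none rose. Outside that list Frzb, a secreted Wnt antagonist, was at 5.58 to 8.14 CPM in wild-type and 0.501 to 1.8 CPM in catalytic-dead libraries. It fell by 2.6 (SE 0.41, adjusted p = 0.000167), and its untested mean in formative floxed cells was 1.32 CPM. Of the TCF and LEF factors, Tcf7 differed by -0.7 (adjusted p = 0.105), which passed with size factors at -0.78 (adjusted p = 0.0394). Tcf7l2 differed by 0.23 (adjusted p = 0.384) and Lef1 by 0.26 (adjusted p = 0.455), and the untested Tcf7l1 was at 179 and 183 CPM.

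**Figure D2:**
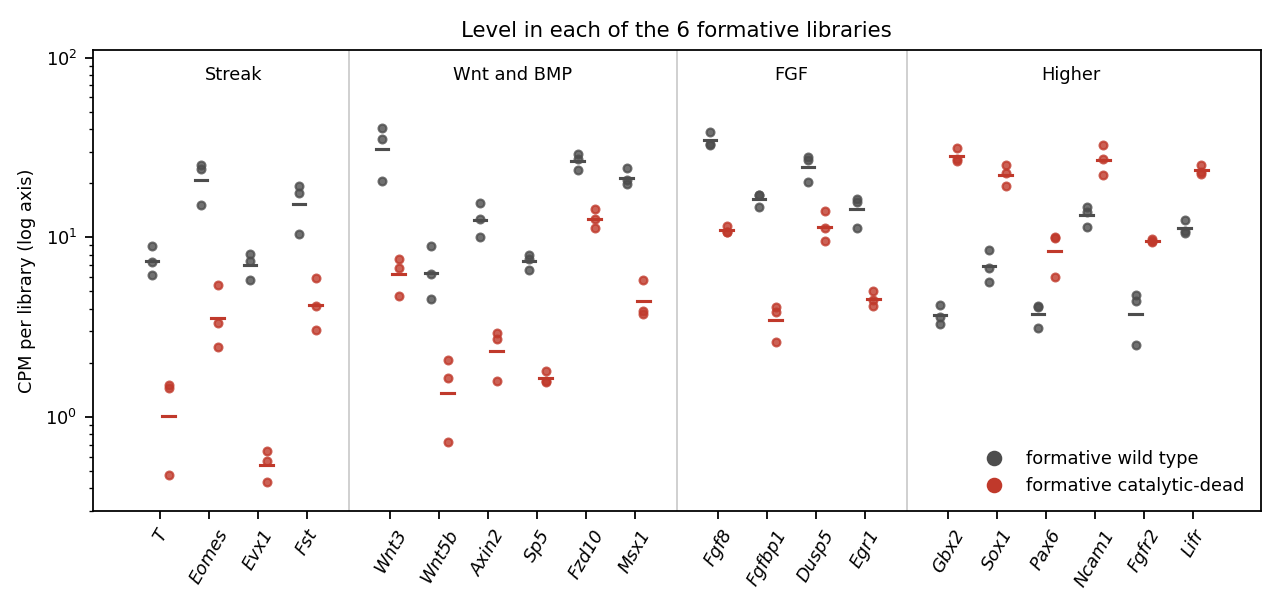
CPM (y axis, log scale) of 20 named genes in each of the 6 formative libraries, grey for wild type and red for catalytic-dead, with a bar at the geometric mean of each group. The 14 genes of the streak, Wnt and BMP and FGF panels lie lower, and the 6 of the last panel higher, in all catalytic-dead libraries.

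The promoters of lowered streak and Wnt genes were read to show the letters that lie at the genes discussed. Each sequence below runs from 250 bases before to 50 bases after the RefSeq start on GRCm38.p6, 300 bases on the gene's own strand. Capitals mark CTTTGAA or CTTTGAT, letters of the core that TCF and LEF factors bind, or the same letters on the opposite strand. T was taken at chr17:8434173-8434472 on the plus strand, Sp5 at chr2:70474673-70474972 on the plus strand, Eomes at chr9:118477939-118478238 on the plus strand and Axin2 at chr11:108920099-108920398 on the plus strand.
T: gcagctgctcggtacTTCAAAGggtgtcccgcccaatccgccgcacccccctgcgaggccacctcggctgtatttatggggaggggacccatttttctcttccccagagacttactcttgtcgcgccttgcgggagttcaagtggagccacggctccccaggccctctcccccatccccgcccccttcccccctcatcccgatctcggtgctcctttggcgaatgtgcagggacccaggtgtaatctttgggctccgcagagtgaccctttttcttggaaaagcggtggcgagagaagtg
Sp5: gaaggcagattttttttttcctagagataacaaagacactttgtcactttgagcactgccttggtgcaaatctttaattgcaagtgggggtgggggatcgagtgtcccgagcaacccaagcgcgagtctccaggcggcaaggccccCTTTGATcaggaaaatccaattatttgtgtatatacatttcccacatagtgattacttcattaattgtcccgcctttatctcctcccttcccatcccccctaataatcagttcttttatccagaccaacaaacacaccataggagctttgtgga
Eomes: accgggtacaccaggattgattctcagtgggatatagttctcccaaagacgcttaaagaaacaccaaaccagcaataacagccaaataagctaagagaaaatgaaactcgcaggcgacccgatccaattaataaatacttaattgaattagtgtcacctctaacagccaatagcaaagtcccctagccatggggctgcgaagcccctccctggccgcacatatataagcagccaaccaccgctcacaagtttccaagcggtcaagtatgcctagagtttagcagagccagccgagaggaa
Axin2: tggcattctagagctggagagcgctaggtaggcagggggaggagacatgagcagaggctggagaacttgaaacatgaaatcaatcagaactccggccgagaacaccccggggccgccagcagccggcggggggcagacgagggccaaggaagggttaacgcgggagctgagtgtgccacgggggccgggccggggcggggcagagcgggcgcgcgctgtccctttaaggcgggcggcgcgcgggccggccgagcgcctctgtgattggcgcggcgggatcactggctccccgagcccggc
The match in T starts 235 bases and that in Sp5 104 bases before the start. Of 10 lowered genes of the streak, Wnt and BMP lists 9 were in the table, and these 2 held a match in the first listed promoter, while 8.77% of all 27025 promoters in the table hold one. A match is a description of letters and not a bound site, and genes without one can have their sites elsewhere.

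FGF ligands and ERK response genes were mostly lower where they differed. Fgf8, the FGF ligand of gastrulation, was at 32.7, 38.6 and 32.9 CPM in wild-type and 10.7, 10.7 and 11.6 CPM in catalytic-dead libraries. The groups were far apart compared with their spread, and it fell by 1.64 (SE 0.19, adjusted p = 2.76e-06). Fgfbp1, a carrier that releases FGFs from matrix, fell by 2.18 (SE 0.28, adjusted p = 9.78e-06). Fgf1 fell by 1.27 (adjusted p = 0.0215), a call that was lost without weights and without wild-type library a or c or catalytic-dead library a or c. Of the untested ligands, Fgf15 was at 61.3 CPM in wild-type and 13.9 CPM in catalytic-dead cells. Fgf5, the usual marker of formative cells, was at 56.5 and 19.4 CPM. Formative floxed cells, not tested against wild type, held 10.9 CPM of Fgf15, 20.3 CPM of Fgf5 and 0.532 CPM of Fgf1. Low levels of these were thus not particular to catalytic-dead cells. Floxed means of Fgf8 and Fgfbp1 were 25.7 and 24.5 CPM, beside 34.8 and 16.5 CPM in wild type. The receptor Fgfr2 rose by 1.3 (SE 0.25, adjusted p = 0.00115), from 2.52 to 4.78 CPM up to 9.39 to 9.74 CPM. The FGF list thus had 3 falls and 1 rise among 14 tested members, beside 3.45% falls and 4.79% rises over all tested genes. Downstream, Egr1, an immediate early factor, fell by 1.61 (SE 0.25, adjusted p = 0.000145), and Dusp5, a phosphatase that acts on ERK, fell by 1.09 (SE 0.19, adjusted p = 0.000496). Junb fell by 1.11 (adjusted p = 0.0172), a call lost without wild-type library a or catalytic-dead library b. Phlda1 rose by 1.03 (SE 0.2, adjusted p = 0.00156). These made 3 falls and 1 rise among 12 tested genes of the ERK list, beside the same shares over all tested genes. Spry4 and Dusp4, feedback inhibitors of the pathway, differed by 0.42 and -0.14 (adjusted p = 0.433 and 0.809), and the untested Dusp6 was at 274 CPM in wild-type and 204 CPM in catalytic-dead cells.

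The BMP and Notch lists each had 2 of 10 tested genes called and the LIF list 2 of 9, 1 in each direction, beside 8.24% of all tested genes. Msx1, a homeobox gene that responds to BMP, was at 20.7, 19.7 and 24.3 CPM in wild-type and 5.8, 3.88 and 3.76 CPM in catalytic-dead libraries. It fell by 2.24 (SE 0.29, adjusted p = 9.86e-06), and formative floxed cells, not tested against wild type, held 3.6 CPM of it. The ligand Bmp4 rose by 1.05 (adjusted p = 0.0185), a call lost without weights and without wild-type library a or c or catalytic-dead library c. The BMP-induced Id1 and Id3 could not be tested and went from 251 to 134 CPM and from 256 to 114 CPM. In the Nodal list none of 6 tested genes passed in limma, 3 having an unadjusted p under 0.05; by deposited means Nodal was at 129 and 85.7 CPM, and its inhibitor Lefty2 at 68.8 CPM in wild-type and 157 CPM in catalytic-dead cells. The Notch ligand Dll1 rose by 1.66 (adjusted p = 0.0108; lost without wild-type library a) and Notch3 fell by 0.52 (adjusted p = 0.0316; lost without weights, with the contrast's groups alone, or without wild-type library a or b or catalytic-dead library a or c), the 2 calls of 10 tested Notch genes. Lifr, the receptor for LIF, rose by 1.06 (SE 0.21, adjusted p = 0.00217), from 10.5 to 12.4 CPM up to 22.6 to 25.4 CPM; Junb, given above, was the fall of that list.

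Few pluripotency genes could be tested, and 1 of them passed. Gbx2, a homeobox gene that sustains naive self-renewal, was the 1 gene called among 11 tested members of the naive list. That is 9.09%, near the 8.24% of all tested genes. It stood at 3.31, 4.22 and 3.59 CPM in wild-type and 27.1, 31.5 and 26.7 CPM in catalytic-dead libraries. No catalytic-dead library came near the wild-type range, and Gbx2 rose by 2.88 (SE 0.26, adjusted p = 1.96e-07). Naive wild-type cells held 21.9 CPM of it. Esrrb differed by 0.23 (SE 0.22, adjusted p = 0.599), Zfp42 by -0.17 (SE 0.31, adjusted p = 0.795) and Tbx3 by -0.18 (SE 0.2, adjusted p = 0.648). Nanog, untested, was at 121 and 187 CPM, a difference of 0.64 log2, and lies on chromosome 6, whose genes had a median difference of 0.517. Sox2 was at 129 and 131 CPM. The summed deposited level of the naive list was 843.8 CPM in wild-type and 991.5 CPM in catalytic-dead cells. Of the formative list 4 of 18 genes were tested and none passed in limma, 1 having an unadjusted p under 0.05. Its summed level was 3361 CPM in wild-type and 2623 CPM in catalytic-dead cells, with Otx2 at 163 and 195, Pou3f1 at 335 and 201, Dnmt3b at 1720 and 1190 and Pim2, a kinase, at 277 and 134 CPM.

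Among neuroectoderm genes 5 of 13 tested rose and none fell, beside 4.79% rises over all tested genes. Sox1, the early neural plate factor, was at 5.62, 8.54 and 6.78 CPM in wild-type and 22.8, 19.2 and 25.1 CPM in catalytic-dead libraries. The groups were separate and Sox1 rose by 1.66 (SE 0.2, adjusted p = 4.09e-06). Pax6, a paired-box factor of forebrain and eye, went from 4.11, 3.14 and 4.12 CPM to 6.01, 9.93 and 9.97 CPM, a rise of 1.12 (SE 0.26, adjusted p = 0.00617) that did not pass without weights. Ncam1, the neural cell adhesion molecule, rose by 1.01 (SE 0.2, adjusted p = 0.00154). Olig3 and Pax3 rose from group means under 0.5 CPM to 2.34 and 1.88 CPM; the call for Olig3 was lost with the contrast's groups alone and without wild-type or catalytic-dead library b, and Pax3 stood at the threshold (adjusted p = 0.05). The intermediate filament gene Nes, untested, went the other way, from 52.3 to 19.4 CPM. Six3 was at 1.09 CPM in wild-type and 1.26 CPM in catalytic-dead cells. With size factors 4 members rose.

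Several junction genes of the epithelium had lower means, and some genes of mesenchyme rose. Cdh1, which encodes E-cadherin, could not be tested; its deposited mean was 1560 CPM in wild-type and 610 CPM in catalytic-dead cells. The untested splicing regulator of epithelia Esrp1 went from 57 to 21.8 CPM, the desmosomal Dsp from 25 to 8.44 CPM and the tight junction gene Cldn6 from 138 to 62.4 CPM. Cldn7 was the 1 tested member of 8 that passed, beside 8.24% of all tested genes. With size factors 3 fell, Cldn3 by 0.85 and Ocln by 0.81 being added (adjusted p = 0.037 and 0.0433). Cldn7 was at 44.5, 28.2 and 35.9 CPM in wild-type and 19.6, 10.9 and 14.6 CPM in catalytic-dead libraries, and fell by 1.27 (SE 0.22, adjusted p = 0.000468). Epcam did not follow, at 324 and 377 CPM. In the mesenchyme list 4 of 11 tested genes rose and none fell, beside 4.79% rises over all tested genes. Col1a2, a chain of type I collagen, rose by 2.47 (SE 0.39, adjusted p = 0.00015), and Dcn, the matrix proteoglycan decorin, by 2.42 (SE 0.3, adjusted p = 8e-06). Col5a2 rose by 2.17 (adjusted p = 0.00721; lost without wild-type library b) and Snai2, a repressor of epithelial genes, by 2.14 (adjusted p = 0.0102; lost without wild-type library a), both from below 1 CPM. Col1a1, the partner chain of Col1a2, was at 2 and 1.25 CPM (adjusted p = 0.461), and Twist1 at 6.54 CPM in both groups. The untested smooth muscle actin gene Acta2 was at 15 CPM in wild-type and 64.8 CPM in catalytic-dead cells.

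Marker lists of other lineages were read for the same cells. The summed level of the mesenchyme list was 206.8 CPM in wild-type and 307.7 CPM in catalytic-dead cells. Primitive endoderm markers summed to 549.5 and 426.4 CPM, and 2 of 8 tested rose, beside 4.79% of all tested genes. Dab2 rose by 0.78 (adjusted p = 0.0157), a call lost without weights, wild-type library a or b, or catalytic-dead library c. Col4a2 rose by 1 (adjusted p = 0.0301), a call lost without any 1 of the 6 libraries. Trophoblast markers summed to 126.8 and 133.4 CPM; besides Eomes and Fgfr2, Ascl2 passed with a fall of 2.25 (SE 0.33, adjusted p = 6.59e-05), and Cdx2 was at 1.1 and 0.557 CPM. The part of other cell types in the results above was not tested.

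Imprinted genes, which are expressed from 1 parental allele, included large changes in both directions. Mest was at 7.71, 5.1 and 5.58 CPM in wild-type and 32.0, 21.2 and 34.1 CPM in catalytic-dead libraries, and rose by 2.2 (SE 0.26, adjusted p = 3.57e-06). Sgce rose by 2.56 (SE 0.36, adjusted p = 5.54e-05) and Nnat by 2.37 (SE 0.25, adjusted p = 1.02e-06). The untested Peg10, the neighbour of Sgce, went from 28 to 120 CPM. Nap1l5, also imprinted though not on the list, rose by 2.77 (SE 0.38, adjusted p = 2.54e-05). Cdkn1c, an inhibitor of cyclin-dependent kinases, was at 39.4, 29.0 and 42.6 CPM in wild-type and 13.3, 6.34 and 10.6 CPM in catalytic-dead libraries, and fell by 1.9 (SE 0.26, adjusted p = 2.89e-05). Magel2 fell by 1.6 (SE 0.3, adjusted p = 0.000848). Untested members with lower deposited means were Grb10, an adaptor that dampens insulin receptor signals, at 192 and 27.7 CPM, Phlda2, a growth restrictor of the placenta, at 126 and 18.1 CPM, and the noncoding H19 at 134 and 42.4 CPM. The list of 25 thus gave 3 rises and 2 falls among 12 tested genes, beside 8.24% called over all tested genes. At least 2-fold differences were seen in 3 untested genes each way, beside 2.0% upward and 1.5% downward over all untested genes.

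Genes of the germline rose and genes of the 2-cell-like state fell where they were called. Stra8, which is needed for meiotic entry, rose by 2.29 (SE 0.39, adjusted p = 0.000339), from 1.2 to 4.51 CPM up to 9.27 to 13.1 CPM. Prdm1, a repressor required for germ cell specification, rose by 1.15 (SE 0.24, adjusted p = 0.00262), and the X-linked homeobox gene Rhox6 by 1.09 (SE 0.2, adjusted p = 0.00138). Rhox9 and Slc25a31 rose by 0.66 and 0.62 (adjusted p = 0.0383 and 0.0479), and both calls were lost with size factors, without weights and without any of 4 libraries each, among them wild-type libraries a and b and catalytic-dead library b. That made 5 rises and no fall among 19 tested germline genes, beside 4.79% rises over all tested genes. With size factors the list had 3 rises and 1 fall. The untested Rhox5 was at 92.9 CPM in wild-type and 258 CPM in catalytic-dead cells. Of 8 tested 2-cell-like genes 3 fell and none rose, beside 3.45% falls over all tested genes. Tcstv3 fell by 1.8 (SE 0.35, adjusted p = 0.0013). Usp17la fell by 1.85 (adjusted p = 0.0123), a call lost without weights or catalytic-dead library b. Zscan4d fell by 1.09 (adjusted p = 0.046), a call lost under 8 of 12 alternatives, among them without wild-type library b or c or any catalytic-dead library. Tcstv3, Usp17la and Zscan4d have near-identical copies, so their counts are uncertain.

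The remaining lists held 0 to 2 calls each, apart from 4 among collagen and laminin chains. Some had few tested members, such as the p53 targets with 2 calls of 3 and the DNA methyltransferases and TET enzymes with 2 of 4, beside 8.24% of all tested genes. None of 11 tested interferon-type genes, none of 11 tested genes of cholesterol synthesis and none of 6 tested genes of glucose uptake and glycolysis passed in limma, and 0 of these had an unadjusted p under 0.05. The untested glucose transporters Slc2a1 and Slc2a3 went from 111 to 236 CPM and from 433 to 935 CPM; Slc2a3 lies on chromosome 6. Among G1 regulators, besides Cdkn1c, the untested Cdk6 was at 72.1 and 23.1 CPM and Cdkn1b, on chromosome 6, at 38.8 and 102 CPM. Tet3, which oxidises methylated cytosine, rose by 0.89 (adjusted p = 0.026; lost without weights, wild-type library a or b, or catalytic-dead library a or c), and Apobec1, a cytidine deaminase, by 1.52 (adjusted p = 0.00251). Dnmt3l, a cofactor of the DNA methyltransferases, was at 362 and 173 CPM without a test. Of 8 tested Polycomb genes Pcgf1 rose by 1.04 (adjusted p = 0.0308), a call lost without weights, with size factors and without 5 of the 6 libraries. Of 8 tested AP-1 genes Junb and Batf3 fell, Batf3 by 1.21 (adjusted p = 0.0215; lost without weights or library a or b of either group). Of 3 tested p53 targets Aen, an apoptotic nuclease, fell by 0.67 (SE 0.15, adjusted p = 0.00412), and Sesn1 rose by 1.09 (adjusted p = 0.0364; lost without any 1 of the 6 libraries). Col5a1, a chain of type V collagen, fell by 1.14 (SE 0.26, adjusted p = 0.00556), the 1 fall beside 3 rises among 14 tested collagen and laminin chains. The potassium channel gene Kcnk6 fell by 1.82 (SE 0.47, adjusted p = 0.0136), a call lost without wild-type library a or catalytic-dead library a. Of 6 tested amino acid transporters the cystine carrier Slc7a11 rose by 1.36 (adjusted p = 0.01) and Slc43a1 fell by 0.73 (adjusted p = 0.0339), the first lost without weights or library b of either group and the second without weights, wild-type library a or any catalytic-dead library. Of 20 tested axon guidance genes Plxnb1 fell by 0.81 (adjusted p = 0.0102; lost without wild-type library a) and Efnb1 rose by 1.09 (adjusted p = 0.0305; lost without library a or c of either group).

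The largest rises among genes that reached 5 CPM began with Il10, the gene of an anti-inflammatory cytokine (chr1:131019845-131024974, plus strand). Il10 was at 0.288, 0.392 and 0 CPM in wild-type libraries, or 4, 4 and 0 counts, and at 12.2, 13.6 and 12.4 CPM in catalytic-dead libraries, or 171, 144 and 86 counts. Il10 thus rose by 5.06 (SE 0.45, adjusted p = 8.74e-08). Naive cells of both genotypes held 0.423 and 0.418 CPM, and formative floxed and knockout cells 1.03 and 0.353 CPM. Gbp7, a guanylate-binding protein, was at 2.52, 0 and 2.79 CPM in wild-type and 10.8, 11.1 and 10.7 CPM in catalytic-dead libraries. It rose by 3.23 (SE 0.53, adjusted p = 0.000241), and by 1.95 without wild-type library b, which held 0 counts. Hoxa5 rose by 3.11, while 6 other tested genes of the HoxA cluster did not pass. Rnf165, a ubiquitin ligase, went from 5.76, 4.81 and 5.18 CPM to 33.7, 29.1 and 34.3 CPM, a rise of 2.58 (SE 0.26, adjusted p = 7.02e-07). Also among the 15 were Emp1 (2.77), the neurotrophin receptor gene Ntrk2 (2.58), Cped1 (2.52), the small heat shock gene Cryab (2.49) and Mymx, a microprotein of myoblast fusion (2.42). Beyond the reach of the test, Aldh1b1, a mitochondrial aldehyde dehydrogenase, went from 6.29 to 63.8 CPM, Txnip, an inhibitor of thioredoxin and glucose uptake, from 152 to 755 CPM, and Trap1a from 39.5 to 246 CPM.

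The largest falls were led by Btla, an inhibitory receptor of lymphocytes, which went from 6.41, 4.81 and 5.98 CPM to 0.215, 0.189 and 0.145 CPM and fell by 3.94 (SE 0.38, adjusted p = 2.06e-07). Kcnj3, a G-protein-gated potassium channel, was at 26.2, 21.5 and 31.8 CPM in wild-type and 2.65, 1.7 and 1.59 CPM in catalytic-dead libraries and fell by 3.63 (SE 0.32, adjusted p = 8.74e-08). Ppp4r4, a regulatory subunit of protein phosphatase 4, was at 21 to 37.5 CPM in wild-type and 2.08 to 3.15 CPM in catalytic-dead libraries, a fall of 3.53. Libraries that do not overlap were a condition for the 15 largest rises and falls named here. Psors1c2 fell by 3.43, the lipoxygenase gene Alox15 by 2.9, Trim67 by 2.73, the cyclin gene Ccno by 2.66, the epithelial trafficking gene Rab25 by 2.57, the prostaglandin receptor gene Ptger4 by 2.56, Fam49a by 2.41 and Ifitm7 by 2.36, with adjusted p from 8.74e-08 (Trim67) to 0.00292 (Ifitm7). Formative floxed cells, not tested against wild type, held 0.994 (Btla), 3.16 (Kcnj3), 1.25 (Psors1c2), 8.63 (Ccno) and 1.11 CPM (Ifitm7). Wild-type means of these were 5.9, 26.4, 14.3, 37.5 and 9.81 CPM. Floxed means of Alox15, Rab25 and Ptger4 lay between those of wild-type and catalytic-dead cells. Those of Ppp4r4, Trim67 and Fam49a were 24.8, 26.9 and 14.5 CPM, beside 30.9, 21.1 and 21.8 CPM in wild type. Among untested genes with the largest lower means, Mup6, of a family with near-identical copies, was at 45 CPM in wild-type and 2.53 CPM in catalytic-dead cells. The carbonic anhydrase gene Car2 was at 251 and 39.6 CPM, and Sema6a, a guidance ligand, at 64.1 and 11.1 CPM. Of 86 named or listed genes past the threshold, 58 passed it under every alternative run for them, at most 12, and none changed direction. The 86 leave out Pax3 and Runx3, Irx3, Maml2 and Ddx60, whose formative calls were not rerun under the alternatives or not counted.

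The genes of 1 chromosome were higher as a whole. Over 423 genes of chromosome 6 at 4 CPM or more, the median difference was 0.517 log2 in favour of catalytic-dead cells, a ratio of 1.43, and 92.0% of them were higher. Medians of the other chromosomes ran from -0.125 to 0.128. The median for chromosome 6 was 0.492, 0.521 and 0.588 in catalytic-dead libraries a, b and c against the wild-type mean, and -0.001, 0.017 and 0.024 in the wild-type libraries. With 1 value per library relative to the mean of the 6, over 255 genes recovered in all of them, the exact two-sided permutation test gave p = 0.1, the smallest that 3 against 3 allows. The chromosome had stood out in these same libraries before that test, so the test adds no separate evidence. In naive cells of the same lines the chromosome 6 median was 0.587, a ratio of 1.5, with other chromosomes at -0.07 to 0.224. Formative floxed minus wild-type cells gave 0.016.

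**Figure D3:**
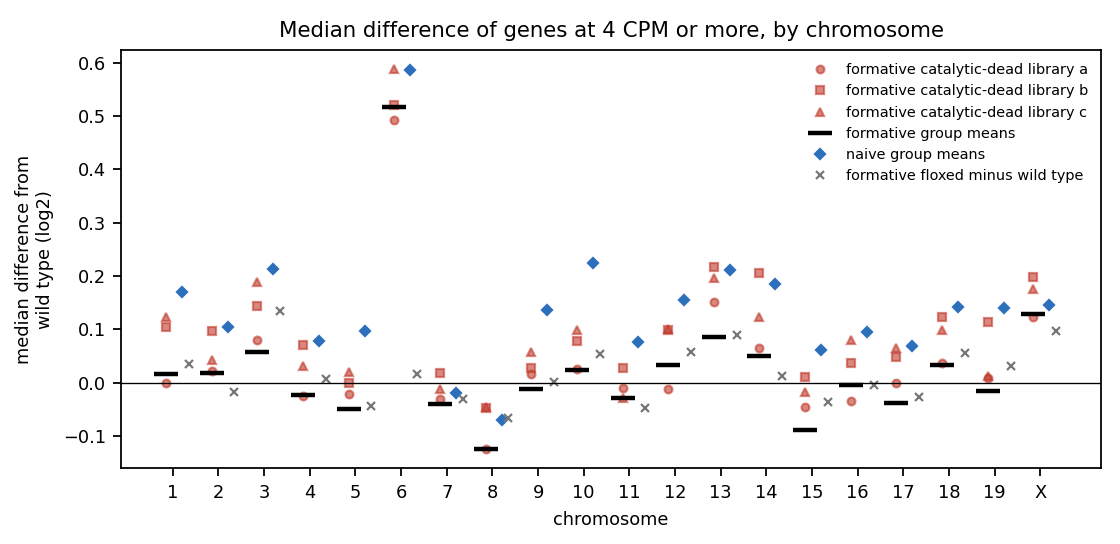
Median difference from wild type (y axis, log2) over genes at 4 CPM or more on each chromosome (x axis). Black bars are formative catalytic-dead group means, red symbols the 3 catalytic-dead libraries, blue diamonds naive catalytic-dead means and grey crosses formative floxed cells; chromosome 6 stands at 0.517 and 0.587 and the floxed cells there at 0.016.

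The shift ran along the whole chromosome. When its genes were split into 8 parts by position, medians were 0.411 to 0.707 in formative and 0.455 to 0.734 in naive cells, highest in the first part in both states. Of the 566 rises, 108 lay on chromosome 6, which held 612 (5.18%) of the tested genes. Thus 17.6% of its tested genes rose, against 2.07% to 6.73% on each of the other chromosomes, and 6 fell. Among the 15 largest rises, Hoxa5, Emp1, Nap1l5, Sgce, Cped1 and Col1a2 are on it, as are Mest and Stra8, and so are Evx1 and Wnt5b, which fell. After the chromosome's median was subtracted from its genes, 30 of the 108 still rose, and 31 fell, the earlier 6 among them. Hoxa5 then rose by 2.59, Emp1 by 2.26, Nap1l5 by 2.25, Sgce by 2.04, Cped1 by 2, Col1a2 by 1.96, Mest by 1.69 and Stra8 by 1.77, and all 8 passed. The calls of Tet3, Apobec1 and Pcgf1, also on chromosome 6, were lost at 0.37, 1 and 0.52 (adjusted p = 0.42, 0.0514 and 0.329). With chromosome 6 left out, 429 genes rose and 373 fell among 11193. Chromosome copy number was not measured here, and the cause of the shift was not tested.

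**Figure D4:**
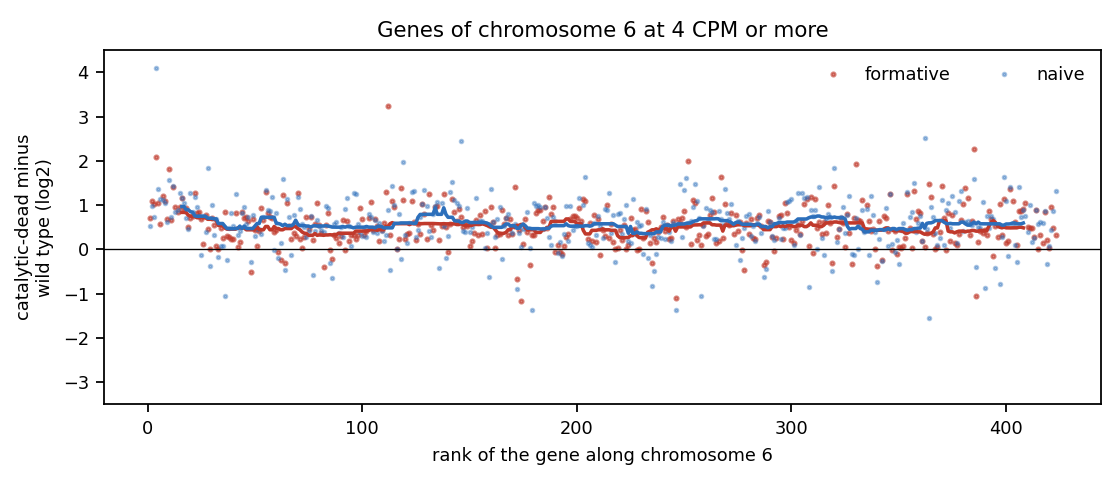
Difference between catalytic-dead and wild-type cells (y axis, log2) of 423 genes of chromosome 6 in their order along it (x axis, rank), red for formative and blue for naive cells, with running medians over 31 genes. Both lines stay above 0 along the chromosome.

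Whether the effect differs from that in naive cells was tested as an interaction. The naive contrast rests on 2 wild-type libraries, since the deposited naive wild-type column averages only 2, and it called 10.8% of its tested genes, 6.14% as higher and 4.61% as lower. The effect differed between the states for 382 of 11608 genes (3.29%), 211 with the larger value in formative cells and 171 with the smaller. Without naive wild-type library a the count was 218. Eomes, lower by 2.49 log2 in formative catalytic-dead cells, rose by 1.49 in naive ones, from 6.83 CPM in wild type (adjusted p = 0.00303), and the difference of -3.98 passed (SE 0.45, adjusted p = 5.76e-06). Runx3, a runt-domain factor, likewise fell by 1.72 in formative and rose by 2.65 in naive cells (difference -4.38, adjusted p = 4.23e-06). Wnt3 and Axin2 had differences of -3.56 and -2.69 (adjusted p = 0.0047 and 0.00255), with naive values of 1.29 and 0.37. For T the difference was -2.23 with an adjusted p of 0.127, and naive cells held 0.956 and 0.733 CPM of it. In the other direction, Gbx2 and Il10 had differences of 3.41 and 5.08 (adjusted p = 4.23e-06 and 0.000416). For Apol6 and Ly6a the difference came from the naive side, with falls of 4.85 and 4.26 there and formative differences of -0.72 and -0.28.

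**Figure D5:**
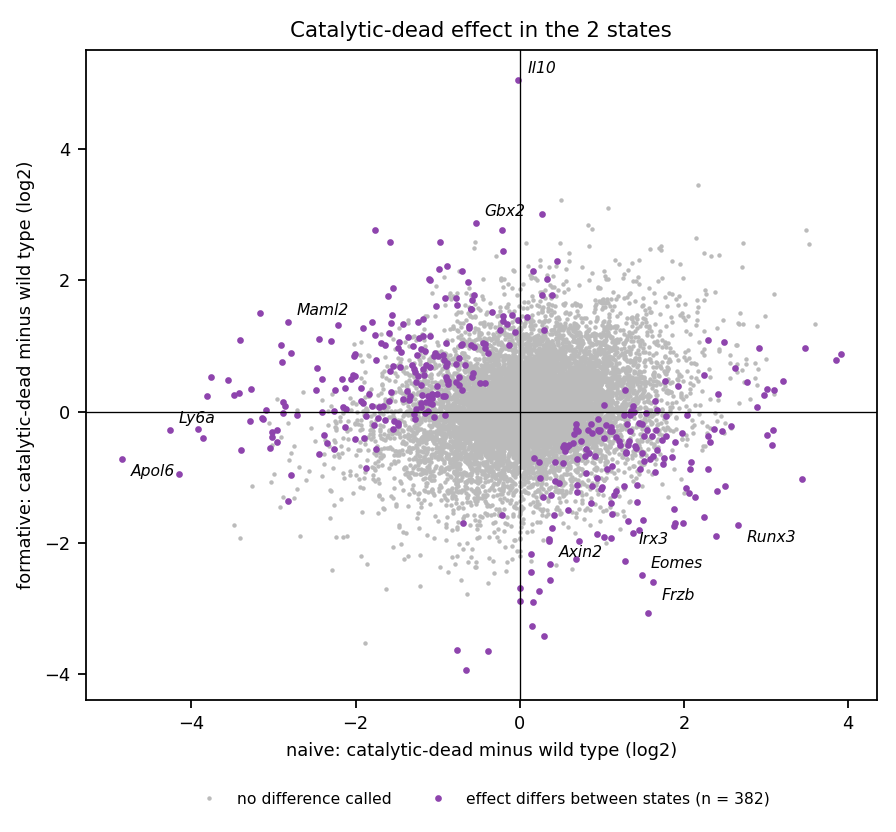
Catalytic-dead minus wild type in naive cells (x axis, log2) against the same in formative cells (y axis, log2), 1 point per gene tested in both. The 382 purple genes differ between states; Eomes and Runx3 lie lower right, Gbx2 and Il10 at the top and Apol6 and Ly6a at the left.

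Some of the changes were seen in both states. Of 545 formative rises tested in naive cells, 132 (24.2%) were also called higher there, among 661 naive rises, while 5.69% of all genes tested in both were naive rises, and 17 were called lower. On chromosome 6, where both states had a raised median, 45 of 102 rises were shared. Elsewhere 87 of 443 (19.6%) were, 15.3% of the naive rises there, beside 5.17% of all genes. Of 404 formative falls 54 (13.4%) were also called lower, 10.4% of the naive falls, beside 4.49% of all genes, and 14 were called higher. The imprinted Sgce, Nap1l5, Mest and Nnat rose in both, by 3.52, 3.48, 2.71 and 2.33 in naive cells, and Cdkn1c fell in both, by 2.1 in naive cells. The naive libraries are separate from the formative ones.

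Loss of MLL4 in formative cells without MLL3 was set beside loss of catalysis, each against its own control. The knockout minus floxed contrast called 17.6% of its genes, 10.9% as higher and 6.67% as lower. Of all genes tested in both, 10.8% were called higher in the knockout and 6.65% lower. Genes abundant in knockout cells could not be tested there, so the overlap leaves out some large rises. By deposited means, Gbx2, Emp1 and Cryab went from 2.91, 3.03 and 3.16 CPM in floxed to 48.9, 67.0 and 64.2 CPM in knockout cells. Rnf165, also untested there, went from 18.1 to 10.2 CPM. Of 521 rises in catalytic-dead cells tested there, 98 (18.8%) were also called higher in the knockout and 68 lower. The 98 were 8.14% of the knockout's rises. Of 382 falls 67 (17.5%) were also called lower and 51 higher, and the 67 made 9.01% of the knockout's falls. Calls in the opposite direction were thus also frequent, and the median knockout effect was -0.01 log2 over these rises and -0.08 over these falls. The 2 effects differed for 1532 of 11186 genes (13.7%), 6.37% with the higher and 7.33% with the lower value in catalytic-dead cells. Fgf8 was lower in both, and lower by more in the knockout: it went from 25.7 CPM in floxed to 0.821 CPM in knockout cells, a fall of 4.97 against 1.64, and the difference of 3.34 passed (SE 0.48, adjusted p = 3.76e-05). Trim67 also fell in both, by 4.66 in the knockout (difference 1.92, adjusted p = 0.00463). Sox1 rose in both, by 1.76 in the knockout, and the difference of -0.09 did not pass (SE 0.26, adjusted p = 0.868).

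Other genes went opposite ways. Kcnj3 fell by 3.63 in catalytic-dead cells and rose by 2.43 in the knockout (difference -6.06, adjusted p = 1.18e-09), and Magel2 fell by 1.6 and rose by 4.38 (difference -5.98, adjusted p = 3.46e-09). The controls themselves were unlike for these genes. Wild-type and floxed means were 26.4 and 3.16 CPM for Kcnj3 and 9.41 and 1.42 CPM for Magel2. Fst fell by 1.8 and rose by 2.43 (difference -4.23, adjusted p = 1.28e-05), and Egr1 fell by 1.61 and rose by 1.77 (difference -3.38, adjusted p = 2.12e-07). For Eomes the knockout effect was 0.54 (adjusted p = 0.325), from 4.68 to 6.81 CPM, and the difference of -3.03 passed (adjusted p = 9.2e-05). T fell in both, by 1.9 in the knockout, where the floxed line itself held 2.37 CPM (difference -0.71, adjusted p = 0.566). Dcn rose by 2.42 in catalytic-dead cells and fell by 2.42 in the knockout (difference 4.84, adjusted p = 1.43e-07). Its wild-type and floxed means were 2.3 and 10.6 CPM. Ccn4, Tex13b and Hoxb13 had differences of -5.68, -5.42 and -5.1 that came from knockout rises of 5.95, 5.26 and 4.5, with no call in catalytic-dead cells.

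Genes of the transition itself were taken from the floxed line, which shares no library with either group. Of 2471 tested genes that were higher in formative than naive floxed cells, 192 (7.77%) rose and 161 (6.52%) fell in catalytic-dead cells. Of 1253 that were lower, 62 (4.95%) rose and 49 (3.91%) fell. Of 917 tested genes that were at least 4-fold higher in formative than naive floxed cells, 94 (10.3%) fell and 68 (7.42%) rose in catalytic-dead cells. Of 284 genes at least 4-fold lower in formative floxed cells, 15 (5.28%) rose and 4 (1.41%) fell. Among 7381 genes not called in the floxed transition, 264 (3.58%) rose and 167 (2.26%) fell. The medians of the sets at 4-fold or more were -0.04 and 0.07.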

How the data were processed

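Per the submitters' processing notes, reads of the QuantSeq 3' FWD assay passed FastQC 0.11.8, MultiQC and cutadapt 2.5, and STAR and featureCounts of Subread 1.6.4 on mm10 gave counts. Whether counting used strand is not stated, which leaves overlapping and antisense genes and near-identical copies uncertain. The authors deposited log2 CPM group means of 16617 genes with 9 decimals. Whole counts per library were recovered from these means (23 libraries, sizes within 0.047 of whole numbers); recovered genes hold 11.3% to 12.1% of the counts of the 6 formative libraries compared.

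limma 3.58.1 in R 4.3.3 was run on the recovered log2 CPM in 1 model of all groups, with weights and trended variances. Genes needed 10 counts at the median library size in 3 libraries. On simulated data for this comparison (16617 genes, 200 changed), 103 of 11291 tested genes were called, 5 of them unchanged (4.85%); 7 of 59 genes changed 1.5-fold, 26 of 57 changed 2-fold and 65 of 71 changed 4-fold were called.

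Named were Kmt2c and Kmt2d; the 15 largest rises and falls with non-overlapping libraries and 5 CPM in the higher group; the 6 largest untested differences each way; called list members, up to 5 per list; the 6 largest state and knockout differences each way; and state markers. Other list members were added for their roles, some after their values were seen. Members and lists were chosen with earlier results of these data known. GENCODE vM21 (GRCm38) placed 16606 genes. Promoters are from RefSeq. Alternatives were size factors, other filters and prior counts, no weights, the contrast's groups alone, each library left out, and, added after seeing the data, chromosome 6 left out (also from the overlap with naive cells) or centred.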

Additional observations from a re-analysis of the deposited data

Results flagged for a closer look

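For 37 named or listed genes the test of the interaction found that the catalytic-dead effect differed between formative and naive cells (limma, adjusted p under 0.05); no explanation was tested, and the naive side rests on 2 wild-type libraries. Over all 11608 genes tested for this interaction 3.29% were called, 211 with a positive and 171 with a negative difference. Some of the 37 were named for a large difference between states, and others for their formative change. Their number and their split by direction thus depend on how genes were picked and do not describe all genes. In 24 the difference, formative minus naive effect in log2, was negative. Streak and signalling genes among them were Eomes (-3.98), Wnt3 (-3.56), Evx1 (-3.42), Frzb (-4.23), Msx1 (-2.92), Axin2 (-2.69), Fgfbp1 (-2.31), Junb (-1.81) and Fzd10 (-1.49). Transcription factors among them were Runx3 (-4.38), Irx3 (-3.63), Batf3 (-3.61) and Hoxc8 (-4.28), the last with 2, 1 and 0 counts in the formative catalytic-dead libraries. The others were Psors1c2 (-3.72), Btla (-3.28), Usp17la (-3.23), Alox15 (-3.07), Dab2 (-3.06), Trim67 (-2.97), Ptger4 (-2.93), Kcnj3 (-2.86), Hspa1b (-2.5), Cldn7 (-2.41) and Rhox6 (-1.21). In 13 the difference was positive: Il10 (5.08), Mobp (4.28), Maml2 (4.19), Ntrk2 (4.15), Apol6 (4.13), Ly6a (3.98), Rnf165 (3.55), Gbx2 (3.41), Ddx60 (2.86), Bmp4 (2.52), Prdm1 (2.33), Stra8 (1.84) and Ncam1 (1.61). Dab2 and Rhox6 rose in both states and rose more in naive cells, by 3.85 and 2.3. Some of the flagged genes were near the lowest level of the scale in either state, where a fall can hardly be seen. Naive wild-type and catalytic-dead means were 0.884 and 0.561 CPM for Btla, 0.874 and 0.516 for Kcnj3, 0.584 and 0.689 for Trim67. Alox15 was at 0.386 and 0.432 CPM there. Formative means of Ly6a were 0.775 and 0.639 CPM.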

How the results depend on the processing

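Leaving out 1 library at a time gave 330 to 465 rises and 268 to 354 falls, 218 to 375 differences between states and 1071 to 1362 differences from the knockout; the lowest counts of rises and falls came without wild-type library a. Without weights 411 genes rose and 265 fell. The chromosome 6 median, 0.587 over 255 recovered genes, ran from 0.542 to 0.595 with 1 library left out and was 0.508 with size factors. A prior count of 0.5 gave 493 rises and 357 falls, the groups of the contrast alone 422 and 306, and the stricter filter 580 and 409. Of the same 86 genes past the threshold, 28 lost it under at least 1 alternative and 14 without catalytic-dead library c, and none was reversed. No paired analysis was possible because the recovered libraries carry no replicate numbers. Abundant genes could not be tested, and 4-fold changes were recovered far more often than 1.5-fold ones on simulated data.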
